A study of Mus musculus with 4 samples.

Results

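A set of 254 windows of 1 kb on mouse chromosomes 1 to 19 held fewer RNA polymerase II (Pol II) tags after knockdown of Spt4 or Spt5, the subunits of DSIF, than with a control hairpin, while knockdown of NelfE, a subunit of NELF, left them at 0.75 of the control or more. The windows were chosen by these measured values. Each had at least 30 tags in the control library, a ratio to the control of at most 0.6 in the Spt4 knockdown, above 0.25 and at most 0.6 in the Spt5 knockdown, and at least 0.75 in the NelfE knockdown. Of the 7705 windows with at least 30 control tags, called occupied windows below, 3.3% met all criteria. The ratios inside the 254 windows are therefore a description of the choice, and what was measured outside it follows them.

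Pol II was profiled by chromatin immunoprecipitation and sequencing (ChIP-seq) in V6.5 mouse embryonic stem cells (C57BL/6-129), with an antibody to the N-terminus of its largest subunit, Rpb1. Cells carried a hairpin for about 4 days, which targeted Spt4 in the shSpt4 library, Spt5 in shSpt5 and NelfE in shNelfE, and was a control hairpin in shControl. There was 1 library a group, and the knockdown itself was not checked in these data. All groups, shControl included, received 1 µM flavopiridol for 1 h, so no comparison here includes cells without the inhibitor. The knockdown cells, whose libraries shared a flow cell, spent 2 passages off irradiated feeder cells. The control cells spent 1, and their library was run on a different flow cell, so hairpin, passage and flow cell cannot be told apart in a ratio to shControl. After repeated positions were reduced to 1 tag, shSpt4 kept 2646944 tags, shSpt5 3116313, shNelfE 2938052 and shControl 3170090. Occupied windows held 13.3% of them for shSpt4, 9.55% for shSpt5 and 12.1% for shNelfE, against 16.3% for shControl. A library of whole cell extract is not used here. A difference between libraries has no replicate check, and fewer cells with Pol II at a site and less Pol II per cell cannot be told apart in a bulk culture.

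DSIF is a heterodimer of Spt4 and Spt5 that travels with Pol II from early elongation onward, and Spt5 contacts the polymerase directly. NELF joins the DSIF-bound polymerase and stabilises its pause close to the start site. Phosphorylation of Spt5, NELF and the Rpb1 tail by P-TEFb, whose kinase is Cdk9, lets the polymerase go on, NELF leaves, and DSIF stays on as an elongation factor. Flavopiridol inhibits Cdk9 and so holds polymerase at the pause. Positions are on the mm8 build, for which no gene annotation was used here, so the windows are given by position.

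The criteria narrowed the occupied windows step by step. A shSpt4 ratio of at most 0.6 was met by 1812 windows, or 23.5%, and 1545 of these also had a shSpt5 ratio of at most 0.6. A shNelfE ratio of at least 0.75, which 42.6% of occupied windows reached, left 312. The lower bound on shSpt5 then removed 58 windows with ratios of 0.25 or less. A shSpt5 ratio above 0.25 and at most 0.6 by itself was common, at 51% of occupied windows, so the shSpt4 and shNelfE criteria did most of the choosing. The median occupied window had ratios of 0.778 for shSpt4, 0.558 for shSpt5 and 0.716 for shNelfE.

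Within the 254 windows, tags per 1000000 kept tags (normalised tags) ranged from 2.27 to 24.6 in shSpt4 with a median of 6.42, and from 2.57 to 24.1 in shSpt5 with a median of 5.78. They ranged from 7.15 to 37.1 in shNelfE with a median of 11.9, and from 9.46 to 43.5 in shControl with a median of 13.2. The 3 ratios of a window share its control count. The median ratio to shControl was 0.502 for shSpt4, 0.427 for shSpt5 and 0.842 for shNelfE. The shSpt5 ratio was the lower of the DSIF pair in 171 of the 254, and both ratios were 0.5 or less in 96. In shNelfE, 218 windows still lay below the control and 36 lay at or above it. The median occupied window likewise had shSpt5 (0.558) below shSpt4 (0.778) and shNelfE (0.716) below the control. Shares over all occupied windows were not counted for these, so the counts show no trait of the 254. The 254 were modestly occupied windows, with a median of 42 control tags, against 54 in the other 7451 occupied windows.

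**Figure D1:**
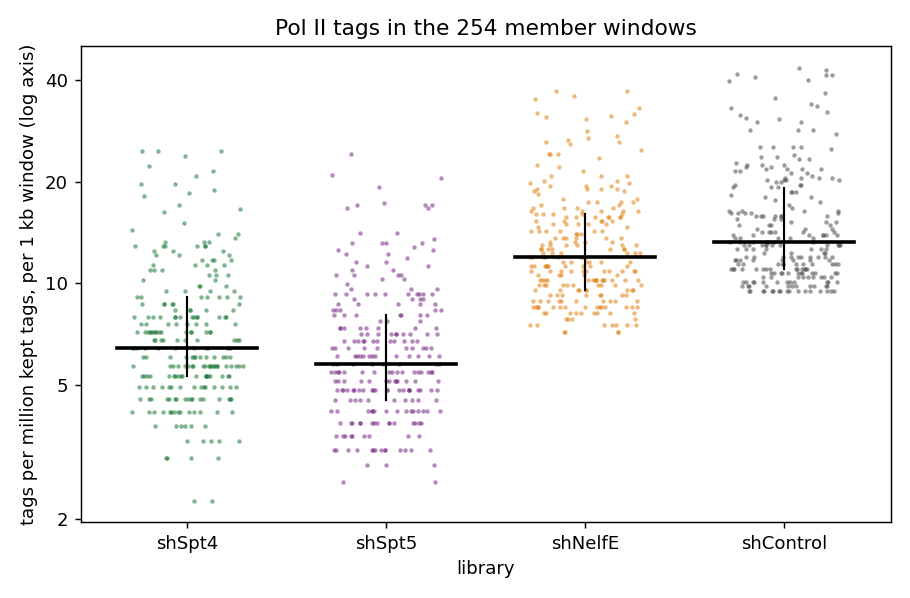
Normalised Pol II tags of each of the 254 windows (points) in the 4 libraries, on a log axis, with the median (thick bar) and quartiles (thin bar). The shSpt4 and shSpt5 medians, 6.42 and 5.78, lie below the shNelfE and shControl medians, 11.9 and 13.2, as the choice of windows requires.

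An exact 95% interval of the ratio to shControl lay below 1 in 206 of the 254 windows for shSpt4 and in 236 for shSpt5, where 27.6% and 65.3% of all occupied windows had such intervals. For shNelfE it included 1 in 253 of them, where 63.4% of all occupied windows did. The limits of the rule lead to such counts, and they are no trait of the 254 beyond it. The share of occupied windows that met the rule was 5.16% with 30 to 39 control tags (108 of 2095), 3.48% with 40 to 59 (82 of 2358), 2.38% with 60 to 99 (49 of 2061) and 1.26% with 100 or more (15 of 1191). Windows with few control tags were thus chosen more often. Set against each other without the control, shNelfE exceeded both shSpt4 and shSpt5 with intervals above 1 in 104 of the 254 windows. Of all occupied windows, 3.3% did so. The rule itself sets shNelfE above both in every chosen window, so this count follows from the choice too.

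**Figure D2:**
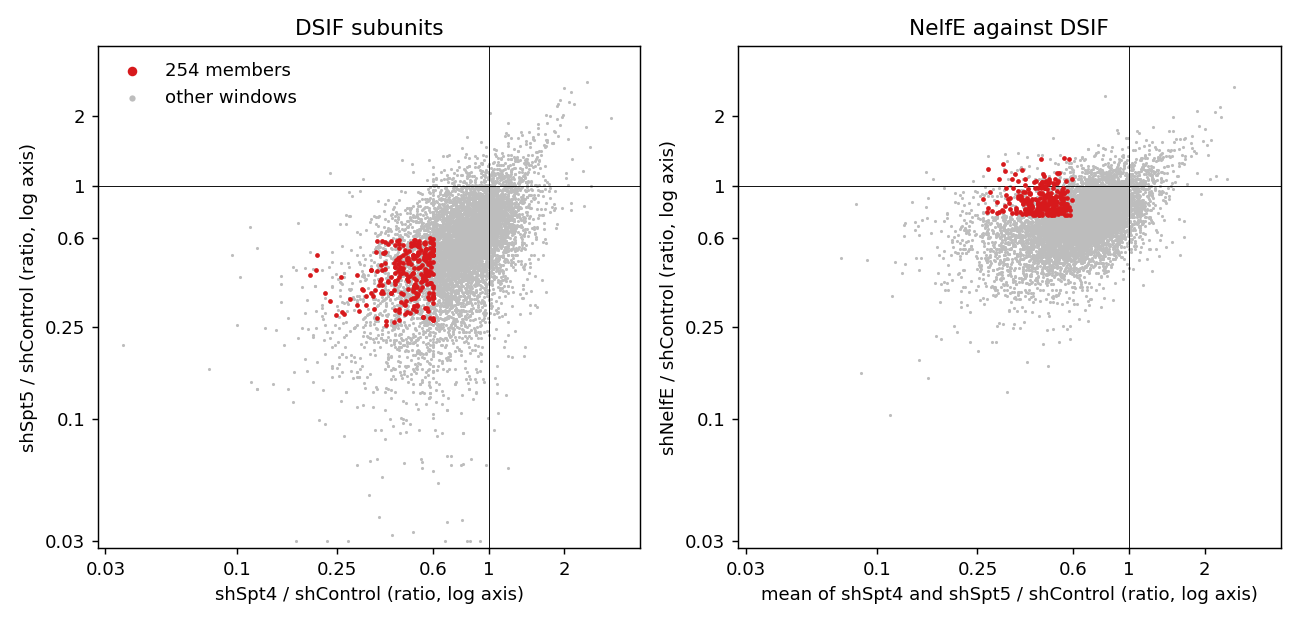
Ratios to shControl at all occupied windows on log axes, shSpt5 against shSpt4 on the left and shNelfE against the geometric mean of shSpt4 and shSpt5 on the right. The 254 chosen windows (red) fill a box set by the thresholds within a continuous cloud of 7451 other windows (grey), and ratios under 0.03 are drawn at 0.03.

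The window with most control tags was on chromosome 8, 75248001 to 75249000, with 52 tags for shSpt4, 60 for shSpt5 and 103 for shNelfE, against 138 in shControl. Its ratios were 0.451 (95% interval 0.322 to 0.625) for shSpt4, 0.442 (0.321 to 0.603) for shSpt5 and 0.805 (0.618 to 1.05) for shNelfE. Both DSIF knockdown libraries were low there and did not differ beyond their intervals, and the shNelfE level was 1.78 times that of shSpt4 (1.27 to 2.54) and 1.82 times that of shSpt5 (1.31 to 2.55). On chromosome 2, 162746001 to 162747000, there were 59 tags for shSpt4, 53 for shSpt5 and 109 for shNelfE, against 126 in shControl. The shNelfE ratio of this window was 0.933 (0.716 to 1.22), beside 0.561 (0.404 to 0.770) in shSpt4 and 0.428 (0.304 to 0.594) in shSpt5. It was the highest shNelfE ratio among the 10 windows with most control tags.

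Other well-covered windows leaned to one DSIF subunit. On chromosome 5, 53878001 to 53879000, shSpt4 had 65 tags, shSpt5 39 and shNelfE 109, against 136 in shControl. The shSpt5 ratio was 0.292 (0.199 to 0.419) and the shSpt4 ratio 0.572 (0.419 to 0.775). The next window on that chromosome was also chosen and repeated the order, with 29, 18 and 50 tags in shSpt4, shSpt5 and shNelfE, against 61 in shControl. On chromosome 12, 87359001 to 87360000, the order was turned, with 21 tags for shSpt4, 53 for shSpt5 and 94 for shNelfE, against 129 in shControl. There the shSpt4 ratio was 0.195 (0.117 to 0.311) and the shSpt5 ratio 0.418 (0.298 to 0.580), and these intervals barely overlapped.

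The remaining 6 of the 10 windows with most control tags lay on chromosomes 1, 6, 11, 15 and 17 and had 112 to 132 control tags. On chromosome 1, 136373001 to 136374000 had 55, 52 and 93 tags in shSpt4, shSpt5 and shNelfE, against 131 in shControl, and 182405001 to 182406000 had 48, 41 and 78, against 112. On chromosome 11, 51449001 to 51450000 had 57, 44 and 90 tags, against 116. The window on chromosome 17, 35839001 to 35840000, had 63, 64 and 105 tags, against 127. Each of these had shNelfE over both DSIF knockdowns with intervals above 1. The windows on chromosome 6, 72546001 to 72547000 (65, 65 and 97 tags, against 131), and chromosome 15, 38245001 to 38246000 (65, 75 and 92 tags, against 132), did not, since shNelfE over shSpt4 was 1.34 (0.972 to 1.87) and 1.28 (0.918 to 1.78). The chromosome 15 window was also the single one of the 254 whose shNelfE interval lay below 1, at 0.752 (0.570 to 0.989).

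The lowest geometric means of the DSIF ratios came from smaller windows, except for chromosome 12, 87409001 to 87410000, which ranked lowest of all. It had 21 tags for shSpt4, 28 for shSpt5 and 83 for shNelfE, against 102 in shControl, for ratios of 0.247 (0.146 to 0.397), 0.279 (0.177 to 0.428) and 0.878 (0.649 to 1.18). Chromosome 12, 87379001 to 87380000, followed the same pattern with 8, 13 and 45 tags, against 41 in shControl, and it had the widest gap between shNelfE and the DSIF pair of all 254 windows, a log2 difference of 2.11. Chromosome 7, 11944001 to 11945000, had 10, 13 and 33 tags, against 46, and chromosome 12, 87713001 to 87714000, had 8, 10 and 27, against 36. Chromosome 10, 127071001 to 127072000, had 6, 11 and 28 tags, against 32 in shControl. Among the widest gaps were also chromosome 10, 67492001 to 67493000, with 13, 10 and 46 tags, against 40, chromosome 12, 87410001 to 87411000, with 12, 12 and 44, against 41, and chromosome 14, 20458001 to 20459000, with 8, 11 and 34, against 34. Windows picked for extreme values of small counts overstate them, and these intervals are not adjusted for that.

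The thresholds cut through a continuum. The chosen window nearest the shSpt4 limit had a ratio of 0.599 (chromosome 7, 80408001 to 80409000) and the nearest one left out 0.604 (chromosome 6, 30124001 to 30125000). At the shNelfE limit, the window inside had 48 shNelfE tags, against 69 in shControl (chromosome 5, 110688001 to 110689000), and the one outside 66, against 95 (chromosome 8, 98605001 to 98606000). At the upper limit of shSpt5, they had 23 shSpt5 tags, against 39 in shControl (chromosome 16, 3787001 to 3788000), and 29, against 49 (chromosome 17, 25519001 to 25520000). At its lower limit the ratios were 0.254 inside (chromosome 10, 67492001 to 67493000) and 0.247 outside (chromosome 2, 162767001 to 162768000). At the tag minimum, a chosen window had 30 control tags (chromosome 1, 87624001 to 87625000) and one left out had 29 (chromosome 2, 151985001 to 151986000). The tag minimum alone kept out 34912 windows. Failing the shSpt4 limit alone kept out 1018, failing the shNelfE limit alone 933, and the upper shSpt5 limit alone 92.

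In tags that took no part in the choice, the DSIF ratios lay closer to the control than in the tags that chose, and the shNelfE ratio lay further from it. The tags of each library were divided by odd and even position, the same ratios were applied to 1 set with at least 15 control tags, and the windows so chosen were counted in the other set. Both directions together made 667 choices, and 189 of these fell on the 254. In the tags that chose them, the summed ratios were 0.478 for shSpt4, 0.427 for shSpt5 and 0.883 for shNelfE. In the tags held out, they were 0.643 (0.627 to 0.659) for shSpt4, 0.480 (0.468 to 0.493) for shSpt5 and 0.755 (0.738 to 0.773) for shNelfE. All occupied windows, counted in the same way, stood at 0.827 (0.823 to 0.830), 0.596 (0.594 to 0.599) and 0.755 (0.751 to 0.758). Both DSIF knockdown libraries thus remained below the summed level of all occupied windows, with intervals that did not overlap. The shNelfE library was below the control and at the summed level of all occupied windows. In held-out tags these 667 choices were thus not spared in shNelfE. Choices made with stricter limits of 0.5 and 0.9 had a held-out shNelfE ratio of 0.829 (0.775 to 0.887), above that level.

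The comparisons without the control library showed the same split in held-out tags. The ratio of shNelfE to shSpt4 was 1.17 (1.14 to 1.21) at the chosen windows and 0.913 (0.909 to 0.917) at all occupied windows. For shNelfE over shSpt5 it was 1.57 (1.53 to 1.62) and 1.27 (1.26 to 1.27). These libraries share a flow cell and the number of passages off feeders. The contrast was larger at the windows chosen than elsewhere for either subunit, beyond counting error.

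Single thresholds were met less often in held-out tags than the choice would give. Among the 542 chosen windows with at least 15 held-out control tags, a shSpt4 ratio of at most 0.6 recurred in 272, or 50.2%, where 25.6% of all occupied windows had one. A shSpt5 ratio of at most 0.6 recurred in 412, or 76.0%, against 57.3%. A shNelfE ratio of at least 0.75 recurred in 237, or 43.7%, against 44% of all occupied windows. All criteria were met again by 58 of the 667 choices, or 8.70%, against 3.41%. The DSIF criteria recurred above their background and the shNelfE criterion did not.

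The DSIF ratios stayed below those of all occupied windows in each class of depth. Of the choices made on 50 or more control tags there were 53, and their held-out ratios were 0.610 (0.574 to 0.648) for shSpt4, 0.459 (0.431 to 0.489) for shSpt5 and 0.75 (0.710 to 0.792) for shNelfE. All occupied windows of that depth stood at 0.858, 0.607 and 0.770. The 225 choices made on 15 to 19 control tags had 0.637, 0.458 and 0.770, where all occupied windows of that depth had 0.788, 0.592 and 0.758. The shNelfE interval excluded the level of all occupied windows in 1 class, the 238 choices made on 20 to 29 control tags, with 0.787 (0.755 to 0.821) where all occupied windows had 0.743. At the 151 choices made on 30 to 49 control tags it was 0.719 (0.689 to 0.75), which includes their 0.744.

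**Figure D3:**
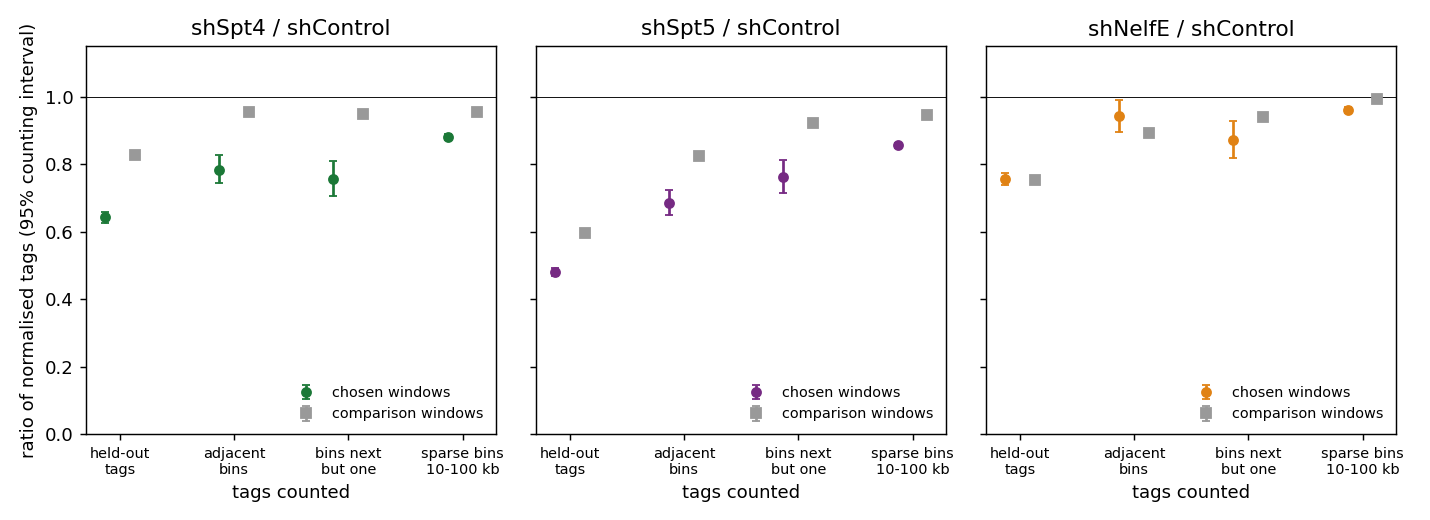
Ratio of normalised tags to shControl with 95% counting intervals for each knockdown library, in tags the rule did not use. Coloured points are windows chosen on the other tags (held-out tags) or bins near the 254 windows, and grey squares the same at all occupied windows (held-out tags) or the other 7451, with shSpt4 at 0.643 and 0.827 in held-out tags and shNelfE at 0.755 in both.

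Neighbouring bins gave a second measurement, since their ratios took no part in the choice. The 413 bins next to a chosen window that held under 30 control tags had 2210 tags for shSpt4, 2278 for shSpt5 and 2945 for shNelfE, against 3376 in shControl. Their ratios were 0.784 (0.743 to 0.827) for shSpt4, 0.686 (0.651 to 0.724) for shSpt5 and 0.941 (0.896 to 0.989) for shNelfE. Bins next to the other occupied windows had 0.954 (0.945 to 0.964), 0.826 (0.817 to 0.834) and 0.892 (0.883 to 0.901). Both DSIF knockdown libraries were lower beside the chosen windows than beside the others, and the shNelfE intervals overlapped. Without the control, shNelfE over shSpt4 was 1.2 (1.14 to 1.27) beside the chosen windows and 0.935 (0.925 to 0.945) beside the others, and shNelfE over shSpt5 was 1.37 (1.30 to 1.45) and 1.08 (1.07 to 1.09).

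Windows at 0.6 or less in all 3 knockdown libraries, 708 in number, resembled the 254 in their neighbouring bins for DSIF and not for NelfE. Beside them the ratios were 0.760 (0.735 to 0.785) for shSpt4, 0.658 (0.637 to 0.680) for shSpt5 and 0.819 (0.794 to 0.845) for shNelfE. The shNelfE interval lay below the one beside the 254 windows, and the other intervals overlapped theirs. Beside the 960 windows at 0.75 or more in all 3 libraries the ratios were 1.12 (1.087 to 1.151), 1.09 (1.07 to 1.13) and 0.992 (0.964 to 1.02).

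The lower DSIF levels were also found further away. At bins 2 away from a chosen window the ratios were 0.756 (0.707 to 0.809) for shSpt4, 0.761 (0.713 to 0.811) for shSpt5 and 0.870 (0.817 to 0.927) for shNelfE. Around the other occupied windows they were 0.948 (0.936 to 0.961), 0.923 (0.911 to 0.935) and 0.939 (0.927 to 0.952). At that distance shNelfE, too, was lower near the chosen windows than near the others. Around the 708 windows low in all 3 knockdown libraries they were 0.780 (0.748 to 0.813), 0.803 (0.772 to 0.835) and 0.882 (0.848 to 0.917), and all 3 intervals overlapped those around the 254. Sparse bins 10 to 100 kb away, with no occupied window within 2 bins, had ratios of 0.881 (0.872 to 0.890) for shSpt4, 0.856 (0.847 to 0.864) for shSpt5 and 0.961 (0.953 to 0.970) for shNelfE. Around the other occupied windows these were 0.955 (0.952 to 0.958), 0.945 (0.943 to 0.948) and 0.994 (0.991 to 0.997), and around the windows low in all 3 libraries 0.8998 (0.894 to 0.906), 0.875 (0.870 to 0.881) and 0.959 (0.954 to 0.965). Lower levels at these distances were thus shared with the windows low in all 3, and shNelfE did not separate these sets there. Over all sparse bins of the autosomes the ratios were 1.04, 1.09 and 1.06.

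The shape of the signal differed by library as well. The highest point of the pooled normalised tags of all 4 libraries in each window was taken as its centre. Within 250 bp of it, shSpt4 had 14.4 normalised tags per kb, shSpt5 11.5 and shNelfE 23.1, against 28.04 in shControl. From 2 to 5 kb the densities were 1.36, 1.25 and 1.59, against 1.96 in shControl. The ratio to shControl thus went up with distance in the DSIF knockdowns, to 0.692 (0.669 to 0.716) in shSpt4 and 0.637 (0.617 to 0.658) in shSpt5 at 2 to 5 kb, beside 0.514 (0.497 to 0.531) and 0.411 (0.397 to 0.425) at the centre. In shNelfE it was 0.810 (0.785 to 0.835) at 2 to 5 kb and 0.823 (0.800 to 0.846) at the centre, and these intervals overlapped. The windows low in all 3 libraries had 0.751 (0.736 to 0.765) in shSpt4 and 0.652 (0.640 to 0.665) in shSpt5 at 2 to 5 kb, beside 0.479 and 0.339 at the centre, and the other 7451 had 0.863 and 0.776, beside 0.822 and 0.578. Higher DSIF ratios away from the centre were therefore not particular to the 254. At the 254 and the windows low in all 3, the choice itself lowers the centre, so the rise follows the choice in part. The other 7451 include the windows low in all 3. The windows kept in all 3 libraries had 1.11 at the centre and 1.003 at 2 to 5 kb in shSpt4, and 0.931 and 0.953 in shSpt5. At 2 to 5 kb the shNelfE ratio was 0.808 (0.793 to 0.823) at the windows low in all 3, close to the 0.810 at the 254. At the centre it was 0.505 at the windows low in all 3. The other 7451 had shNelfE ratios of 0.731 at the centre and 0.877 at 2 to 5 kb. The central values rest on tags the rule used. The values from 2 to 5 kb do not, apart from other chosen windows within that range.

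The focal ratio sets the tag density within 500 bp of the centre over that 1 to 3 kb away. Its median in the 254 windows was 7.65 for shSpt4, 6.91 for shSpt5 and 12 for shNelfE, against 12.3 in shControl. Window by window, the median log2 difference from shControl was -0.56 for shSpt4, -0.84 for shSpt5 and -0.01 for shNelfE, and the shSpt4 and shSpt5 values lay below the control in 209 (82.3%) and 212 (83.5%) of 254 windows. In shNelfE 128 of the 254 (50.4%) lay below it. Among the other 7451 windows, 64.7% lay below the control for shSpt4, 79.8% for shSpt5 and 70.2% for shNelfE, so the shSpt5 share was close to theirs. The other occupied windows had median differences of -0.28, -0.72 and -0.36. At the windows low in all 3 knockdown libraries the medians were -0.77, -1.20 and -0.73, with 87.0%, 91.4% and 87.4% below the control. Lower focal ratios in the DSIF knockdowns were thus not particular to the 254. The choice of the 254 lowers the centre in the DSIF knockdowns and spares it in shNelfE, so their differences follow the choice in part.

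The sets of windows also differed within the control library, whose flanks take no part in the ratios of a window. In shControl, the flanks 1 to 3 kb away held a median of 1.38 normalised tags per kb at the 254 windows, 1.18 at the windows lower in all 3 knockdown libraries, 0.828 at those kept in all 3 and 0.946 at the other 7451. The shControl focal ratio was 12.3 at the 254, 14.0 at those lower in all 3, 25.1 at those kept in all 3 and 21.7 at the other 7451. The windows lower in the DSIF knockdowns had flatter profiles with more Pol II in the flanks, and both the set with shNelfE kept and the set with shNelfE low did so. Median control tags in the window were 42, 45.5, 50 and 54 in these sets. The part of these levels in the focal ratios was not tested.

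**Figure D4:**
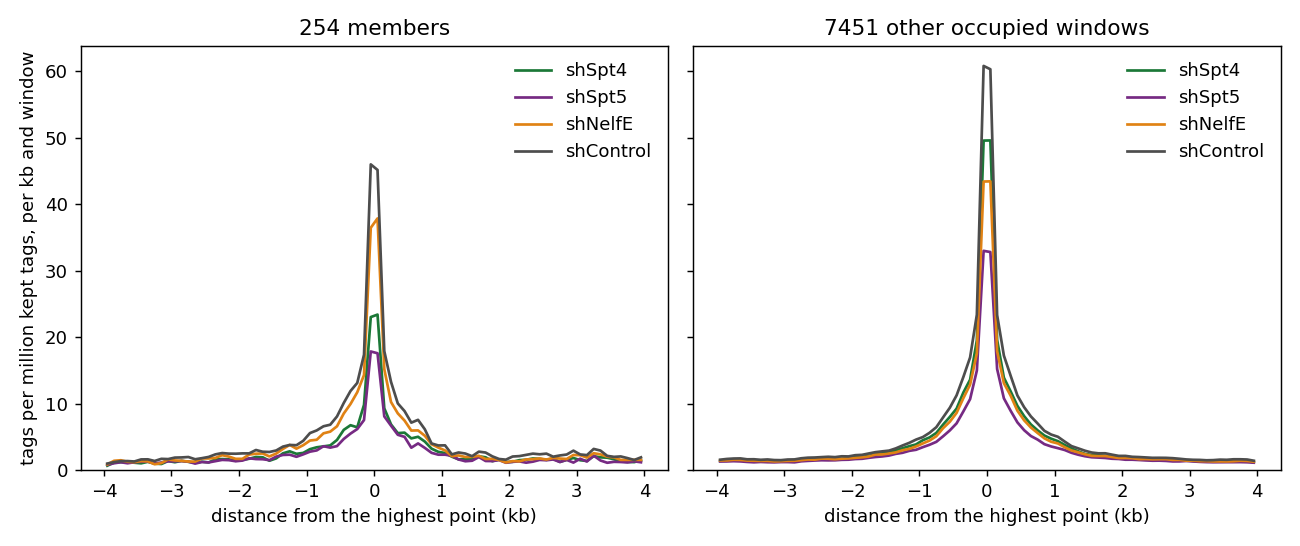
Mean normalised tags per kb, in steps of 100 bp, within 4 kb of the highest point, for the 254 windows (left) and the other 7451 occupied windows (right). In the 254, shNelfE lies below shControl at the centre, with a ratio of 0.823 within 250 bp. Both DSIF knockdowns lie lower than shNelfE over the centre and shoulders, as the choice of windows requires at the centre. Over the centre of the other windows shSpt4 is the knockdown library closest to shControl.

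The chosen windows occurred singly or near each other. They formed 240 single windows and 7 runs of 2 neighbouring windows. Of the 254, 145 had no other occupied window within 5 kb, or 57.1%, against 52.7% of the other occupied windows. The highest control count within 5 kb fell on the window itself in 176 of 254, or 69.3%, against 73.7%. Another of the 254 lay within 100 kb of 48 of them, or 18.9%. Of the other occupied windows, 10.7% had one of the 254 within 100 kb, and of those lower in all 3 knockdown libraries 16.8%.

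Bins between chosen windows that lay within 100 kb of each other were examined after this clustering was seen. The 19 gaps held 482 bins with under 30 control tags. Their ratios were 0.687 (0.643 to 0.735) for shSpt4, 0.695 (0.653 to 0.740) for shSpt5 and 0.928 (0.875 to 0.985) for shNelfE. Gaps between other successive occupied windows within the same distance had 0.909 (0.904 to 0.914), 0.874 (0.869 to 0.879) and 0.952 (0.947 to 0.957). Both DSIF ratios lay below the shNelfE ratio in 14 of the 17 gaps with at least 30 control tags, or 82.4%, and in 1082 of the 2408 such gaps between other occupied windows, or 44.9%. With the gaps on chromosome 12 left out, the ratios were 0.748 (0.695 to 0.805), 0.751 (0.700 to 0.806) and 0.924 (0.864 to 0.989).

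A stretch of chromosome 12 held 5 of the windows within 52 kb, from 87359001 to 87411000, and was singled out after its values were seen. Summed over the stretch, shSpt4 had 118 normalised tags, shSpt5 133 and shNelfE 294, against 321 in shControl. The ratios were 0.368 (0.323 to 0.418), 0.415 (0.370 to 0.466) and 0.916 (0.836 to 1.00). The DSIF knockdown libraries were low outside the chosen windows too. The 44 bins under 30 control tags, which the rule did not test, had 216, 267 and 473 tags, against 542 in shControl, for ratios of 0.477 (0.406 to 0.560), 0.501 (0.431 to 0.581) and 0.942 (0.831 to 1.07). Summed over these bins, Pol II lay lower in both DSIF knockdown libraries, and the shNelfE interval included 1.

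A further 3 windows in the stretch had at least 30 control tags and missed a limit of the rule. Window 87408001 to 87409000 had 15 tags for shSpt4, 9 for shSpt5 and 51 for shNelfE, against 60 in shControl, and its shSpt5 ratio of 0.153 was too low for the rule. Window 87402001 to 87403000 had 3, 4 and 19 tags, against 30, and 87368001 to 87369000 had 5, 15 and 22, against 35, with shNelfE ratios of 0.683 and 0.678. The shSpt5 ratio of 87402001 to 87403000, 0.136, was too low for the rule as well. The intervals of all 3 ratios included 1 on one side of the stretch. In the 50 kb after it, there were 68, 68 and 78 tags, against 76, and the ratios were 1.07 (0.761 to 1.51), 0.910 (0.646 to 1.28) and 1.11 (0.797 to 1.54). In the 50 kb before it, they were 0.655 (0.507 to 0.842), 0.843 (0.674 to 1.05) and 1.25 (1.02 to 1.54).

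**Figure D5:**
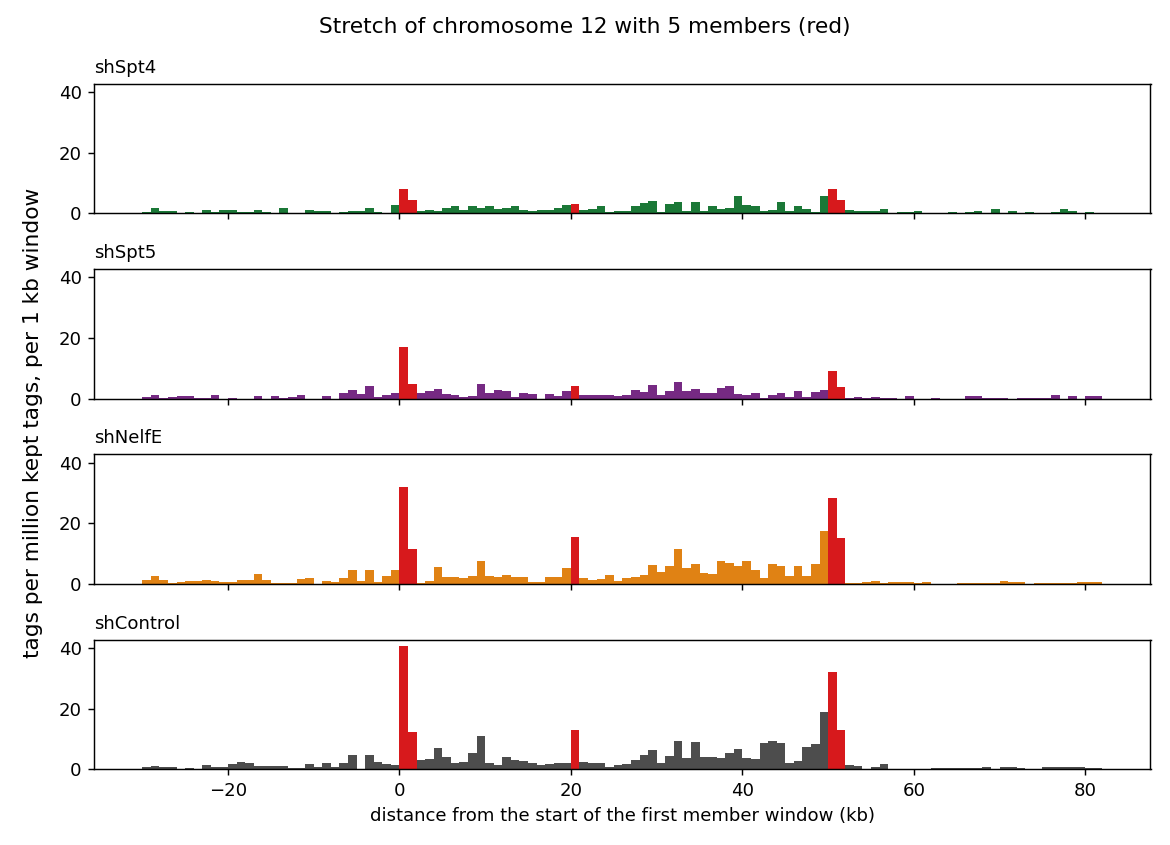
Normalised tags per 1 kb window along the stretch of chromosome 12 with 5 chosen windows (red) and 30 kb on each side, in the 4 libraries on 1 scale. Summed signal over the stretch is 118 in shSpt4 and 133 in shSpt5, lower than the 294 in shNelfE and 321 in shControl.

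The windows were spread over all 19 autosomes. Chromosome 8 held most of them, 27 of its 581 occupied windows or 4.65% (exact 95% interval 3.08 to 6.69%), and chromosome 12 had the largest share, 12 of 249 or 4.82% (2.51 to 8.27%). Both intervals include the 3.3% of all autosomes. Chromosome 6 held 3 of 320, or 0.938% (0.194 to 2.72%), the one chromosome of 19 with an interval below that share. The intervals are not adjusted for the number of chromosomes, so no depletion of chromosome 6 is concluded.

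Repeated reads, those beyond the first at a position and strand, made up 9.10% (8.37 to 9.87%) of shSpt4 reads in the 254 windows, 17.2% (16.2 to 18.1%) of shSpt5 reads and 12.6% (12.1 to 13.3%) of shNelfE reads, against 12.8% (12.3 to 13.3%) in shControl. In the other occupied windows the shares were 13.2%, 21.1% and 15.3%, against 15.7%. The windows low in all 3 knockdown libraries had 8.59%, 16.6% and 11.3%, against 11.9%, so low shares were not particular to the 254. The 254 also had fewer tags per window than the other occupied windows, and the part of this in the shares was not tested. Tags fell evenly on the strands, with 50.3% of shSpt4 tags on the plus strand, 49.9% of shSpt5 tags and 50.0% of shNelfE tags, against 49.4% in shControl.

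Which windows were chosen depended on the scaling. Scaled so that the median occupied window had a ratio of 1 in each library, 196 windows met the rule and 21 of them were among the 254. The windows chosen that way had shNelfE above the control in their adjacent bins, at 1.18, where bins beside the other occupied windows stood at 1.25. All 20 windows named above for their counts, ratios or runs then lay above the control in shNelfE, at 1.05 to 1.73. Their ratios were then 0.2504 to 0.763 in shSpt4, with an interval that included 1 in 5 of the 20, and 0.456 to 1.04 in shSpt5, with such an interval in 13. Scaled by sparse bins, 221 met it and 182 were shared. With all repeated reads kept, 177 of the 254 still met it.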

How the data were processed

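The deposited files give 1 signed position per aligned read, in 2 read categories, per the file headers and the deposited format description. Reads were aligned with Bowtie to mm8 (options -e 70 -k 2 -m 2 -n 2 -l 36), per the file headers, which match the submitters' processing notes. No Bowtie version was given in the sources used here, and no header or label says whether duplicates were removed. The deposited positions carry no normalization.

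Reads of the first category were reduced to 1 tag per signed position, moved by 41 bp toward the fragment centre, counted in 1 kb windows and scaled to 1000000 kept tags (normalised tags). Window coordinates are 1-based, with deposited positions taken as counted from 0. A ratio's exact 95% interval comes from the binomial distribution of the tags given their sum. Intervals cover counting error only and take no account of differences between cultures. Where repeated reads were kept, the intervals also treat PCR copies as if they were independent molecules. With 1 library per group no test was possible and no p-value was computed. Log2 focal ratios used a pseudocount of 0.5 tags. The code was tested on simulated data. Python 3.11.15, NumPy 2.4.6, SciPy 1.17.1 and Matplotlib 3.10.9 were used.

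The windows, sets and tests were chosen with earlier results of these data known. The text names the 10 chosen windows with most control tags, the 5 with the lowest geometric mean of the DSIF ratios, the 5 with the widest gap to shNelfE, up to 3 runs and the windows at each limit. Alternatives changed repeated reads, tag shift, grid, tag minimum, scaling, depth and limits.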

Additional observations from a re-analysis of the deposited data

How the results depend on the processing

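The number of windows was 90 with at least 50 control tags and 32 with limits of 0.5 and 0.9, which are stricter by construction, and 193 to 260 under 5 others, and higher with all reads kept. Of the 254 windows, 188 were kept with tags not moved, 135 at equal depth, and 91 overlapped one chosen on a grid moved by 500 bp. Scaled by the median ratio of occupied windows, adjacent bins had ratios of 0.834 for shSpt4, 0.960 for shSpt5 and 1.18 for shNelfE, the last above the control, where bins beside other occupied windows had 1.23, 1.49 and 1.25. Held-out ratios were then 0.686, 0.631 and 0.993, where all occupied windows had 1.06, 1.07 and 1.05, and focal differences -0.89, -1.27 and -0.25. Under that scaling all 20 named windows lay above the control in shNelfE (1.05 to 1.73), and 13 of them had a shSpt5 interval that included 1. Chromosome 15, 38245001 to 38246000, whose intervals had both lain below 1, was among them, at 1.04 in shSpt5 and 1.05 in shNelfE. Of the 60 named ratios, 21 moved beyond their interval and 2 turned, and none did so under the other 3 settings tried for them. Scaled by sparse bins, adjacent ratios were 0.739, 0.643 and 0.871, where bins beside other occupied windows had 0.919, 0.757 and 0.845. With that scaling, held-out ratios were 0.461 in shSpt5 and 0.735 in shNelfE, where all occupied windows had 0.548 and 0.715. At equal depth, shNelfE had 0.876 in adjacent bins and 0.778 held out, shSpt5 0.499 held out, and shSpt4 a focal difference of -0.68. With at least 50 control tags, shNelfE had 0.895 and 0.737. With all reads kept, adjacent bins had 0.736 in shSpt5 and the focal difference was -0.65 in shSpt4. With stricter limits, held-out ratios were 0.546, 0.440 and 0.829, where all occupied windows had 0.827, 0.596 and 0.755. Adjacent bins then had 0.736 in shSpt4, and focal differences were -0.77 in shSpt4 and 0.14 in shNelfE. Choosing on 1 strand and counting on the other, added after seeing the data, gave held-out ratios of 0.635, 0.470 and 0.764, close to those by position. Adjacent ratios without the chromosome 12 stretch, also added then, were 0.784, 0.685 and 0.939. In shSpt4 and shSpt5 every adjacent and held-out ratio stayed below 1 under these alternatives. The interval of the adjacent shSpt5 ratio scaled by the median ratio, 0.901 to 1.02, included 1. Beyond construction, the cause of these moves was not tested. No paired analysis was possible because each group held 1 library.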

Other observations

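Reads of the second category took no part in the choice of windows. The file headers do not say what sets them apart. At least 1 of them fell in 48 of the 254 windows, in 1847 of the other 7451 and in 129 of the 708 low in all 3 knockdown libraries. The 254 windows held 150 reads for shSpt4, 147 for shSpt5 and 193 for shNelfE, against 307 in shControl. Per 1000000 kept tags their ratios to shControl were 0.585 (0.478 to 0.714), 0.487 (0.397 to 0.595) and 0.678 (0.564 to 0.815). In the other occupied windows the ratios were 1.05 (1.03 to 1.07), 1.02 (1.00 to 1.04) and 0.94 (0.924 to 0.957). Of the 25715 shControl reads behind these ratios, 12676 fell in the windows at 0.75 or more in all 3 knockdown libraries. All 3 ratios lay above 1 there, so the summed values do not describe a typical occupied window. Ratios of the other occupied windows without that set were not computed. All 3 knockdown libraries were thus below the control in these reads at the 254 windows, shNelfE included, and the shNelfE interval overlapped those of shSpt4 and shSpt5. The windows low in all 3 knockdown libraries had close values, 0.633 (0.562 to 0.712), 0.494 (0.437 to 0.558) and 0.673 (0.602 to 0.753).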
